A study of Mus musculus with 44 samples.

Results

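The genes described here are 10 secreted-protein genes of the liver's inflammatory response: Saa1, Saa2, Saa3 and Saa4 (serum amyloid A), Orm1, Orm2 and Orm3 (orosomucoids), Lcn2 (lipocalin 2), Hp (haptoglobin) and Il1rn (interleukin-1 receptor antagonist). They were taken by name from a table of 35249 genes, and all 10 were found and passed the filter on low counts that left 14862 genes for testing. The list was chosen by the levels these genes had shown across the 9 groups and in the single control-diet livers of the same 44 libraries, with no threshold on a value. Adjusted p-values below are therefore descriptions from a model over all tested genes, and the number of listed genes called is set beside the percentage of all genes called and nothing is read from that.

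Liver RNA was sequenced from wild-type mice (WT), Ripk3-/- mice (written Ripk3KO) and Mlkl-/- mice (written MlklKO). RIPK3 is the kinase and MLKL the membrane-disrupting pseudokinase of necroptosis, a lytic form of programmed cell death; the labels do not say how the alleles were made or on which strain. From 2 months of age the mice received normal chow (the control diet) or food lacking choline with little fat (CD-LFD) or much fat (CD-HFD), in each case for 6 months. The WT groups held 6 livers on each diet, the Ripk3KO groups 6 on control diet, 3 on CD-LFD and 4 on CD-HFD, and the MlklKO groups 6, 4 and 3. Whole tissue was used, so fewer cells of a type and less RNA per cell cannot be told apart, and nothing in the labels says whether knockout and WT mice were littermates or were housed together.

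Serum amyloid A, the orosomucoids and haptoglobin are acute-phase proteins: hepatocytes make them after infection or tissue injury, when interleukin-6-type cytokines act through STAT3 and interleukin-1 or TNF act through NF-kappa B, with C/EBP beta and delta taking part at many of the promoters. SAA1 and SAA2 are carried in plasma on high-density lipoprotein, SAA3 is made in the mouse by macrophages and fat as well as by liver, and SAA4 is the form made constitutively. Orosomucoids bind drugs and steroids, haptoglobin captures free haemoglobin, lipocalin 2 withholds iron from bacteria by binding siderophores, and the interleukin-1 receptor antagonist occupies the interleukin-1 receptor without signalling.

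The upstream sequences of the most similar members are printed because they show how close the copies are and where the binding letters of these factors stand. Each line gives the 250 bases before the annotated start of transcription, 5′ to 3′ on the strand of the gene, from RefSeq on GRCm38.p6; capitals mark a match to a motif on either strand.
Saa1 (chr7:46742981-46743230, minus strand): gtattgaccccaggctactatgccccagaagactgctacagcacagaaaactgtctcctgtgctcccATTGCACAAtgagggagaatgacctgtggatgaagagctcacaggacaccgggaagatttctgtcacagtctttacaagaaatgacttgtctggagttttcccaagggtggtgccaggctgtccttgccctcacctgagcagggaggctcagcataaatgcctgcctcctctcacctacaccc
Saa2 (chr7:46751583-46751832, plus strand): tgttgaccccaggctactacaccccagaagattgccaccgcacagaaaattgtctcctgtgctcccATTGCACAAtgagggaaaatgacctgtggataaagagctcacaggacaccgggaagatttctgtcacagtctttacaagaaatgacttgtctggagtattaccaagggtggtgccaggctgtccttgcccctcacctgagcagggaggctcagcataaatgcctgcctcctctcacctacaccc
Orm2 (chr4:63362199-63362448, plus strand): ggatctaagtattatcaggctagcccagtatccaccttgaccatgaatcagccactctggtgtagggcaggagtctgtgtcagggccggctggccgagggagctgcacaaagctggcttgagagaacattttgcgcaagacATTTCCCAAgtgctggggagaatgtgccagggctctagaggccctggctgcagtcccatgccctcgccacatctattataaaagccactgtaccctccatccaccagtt
Orm3 (chr4:63355908-63356157, plus strand): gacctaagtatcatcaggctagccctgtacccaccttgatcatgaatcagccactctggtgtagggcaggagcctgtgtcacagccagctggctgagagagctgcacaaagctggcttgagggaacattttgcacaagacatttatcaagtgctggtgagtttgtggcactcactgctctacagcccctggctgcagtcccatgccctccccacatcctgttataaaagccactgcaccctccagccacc
Il1rn (chr2:24345121-24345370, plus strand): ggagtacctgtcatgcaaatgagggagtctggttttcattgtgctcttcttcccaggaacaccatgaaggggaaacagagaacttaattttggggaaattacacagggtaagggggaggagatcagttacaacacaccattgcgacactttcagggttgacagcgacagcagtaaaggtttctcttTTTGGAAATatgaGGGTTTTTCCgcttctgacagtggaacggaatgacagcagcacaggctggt
The motifs searched on both strands were TTNNGNAAT (C/EBP), TTCNNNGAA (STAT) and, for kappa B, GGG followed after any 2 bases by TTTCC, and no match overlapped another. A C/EBP match stood 183 bases before the start in Saa1, 184 in Saa2, 109 in Orm2 and 64 in 1 of the 3 listed Il1rn promoters, and that Il1rn promoter also held a kappa B match 51 bases before its start. Among 32851 RefSeq promoters of the same length 10.2% held the C/EBP letters, 1.41% the kappa B letters and 7.02% the STAT letters. The windows of Saa3, Saa4, Orm3 and Lcn2 held none of the 3, and no window of any member held the STAT letters, which says only that these letters are not there. Promoters of Orm1 and Hp were not used here. The Saa1 and Saa2 windows were identical at 238 of 249 aligned bases (95.6%), and those of Orm2 and Orm3 at 218 of 245 (89.0%).

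The transcripts are as close as the promoters, which bears on the counts. Saa1 and Saa2 transcripts were 94.4% identical over their alignment, and 13.2% of the 50-base stretches of Saa1 occurred unchanged in Saa2. Orm1 and Orm2 were 91.0% identical, with 20.4% of stretches shared, while Orm2 and Orm3 were 88.5% identical and Saa1 and Saa3 76.0%, with 3.58% and 1.61% of stretches shared. How the counting treated reads that fit more than 1 copy is not given in the sources used here, so the split of counts between Saa1 and Saa2, and between Orm1 and Orm2, is uncertain to that extent. The alignment used GENCODE transcripts of GRCm38 and bears on sequence similarity only.

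Library totals ran from 2476268 to 12471844 counts apart from WT CD-LFD replicate 3 with 88204703, so that the rarest members rested on few reads in the shallow WT control libraries. Values are CPM, the depth-scaled count unit, with TMM scaling between libraries, and log2 differences, their standard errors and Benjamini-Hochberg adjusted p-values are from edgeR's quasi-likelihood test. Ripk3 counts were 0 to 2 in the Ripk3KO libraries except for 9 in control replicate 5, against 3 to 102 in WT libraries. At 1.26 CPM of Ripk3 that library lay within the WT control range of 0.511 to 4.89. It was kept as Ripk3KO by its label, and had the most Saa1 of all 44 livers. Mlkl reads were reduced but present in MlklKO livers, at 2.26 ± 0.64 CPM (SD, n = 6) on control diet against 4.90 ± 1.45 in WT (n = 6). MlklKO CD-HFD replicate 1 had 12.5 CPM against 4.83 and 2.80 in the other 2 and 14.3 to 17.7 in WT CD-HFD livers. It was kept as MlklKO by its label. The 8 hepatocyte markers were present in every group, and a log2 ratio of the clock genes Arntl to Dbp, which peak at opposite times of day, spread from -7.47 to 2.63 among WT control livers but only from -7.04 to -3.60 among knockout control livers.

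Compared per kilobase of transcript, the 6 WT control livers expressed Hp most (2585 ± 707 CPM per kb, n = 6), followed by Orm1 (928 ± 283) and Saa4 (114 ± 17.8). Saa1 (39.5 ± 18.7), Saa2 (20.01 ± 22.3), Orm2 (13.3 ± 8.28) and Saa3 (7.07 ± 3.06) came next, and Orm3 (2.93 ± 1.46), Lcn2 (2.67 ± 2.33) and Il1rn (0.552 ± 0.335) stood lowest. In the MlklKO control livers Saa1 (3109 ± 2173 CPM per kb, n = 6) and Saa2 (2487 ± 2288) had moved to the places behind Hp (5881 ± 2054). Together the 10 genes took 0.313% to 0.606% of all counts in WT control livers and up to 3.51% in Ripk3KO control replicate 5.

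**Figure D1:**
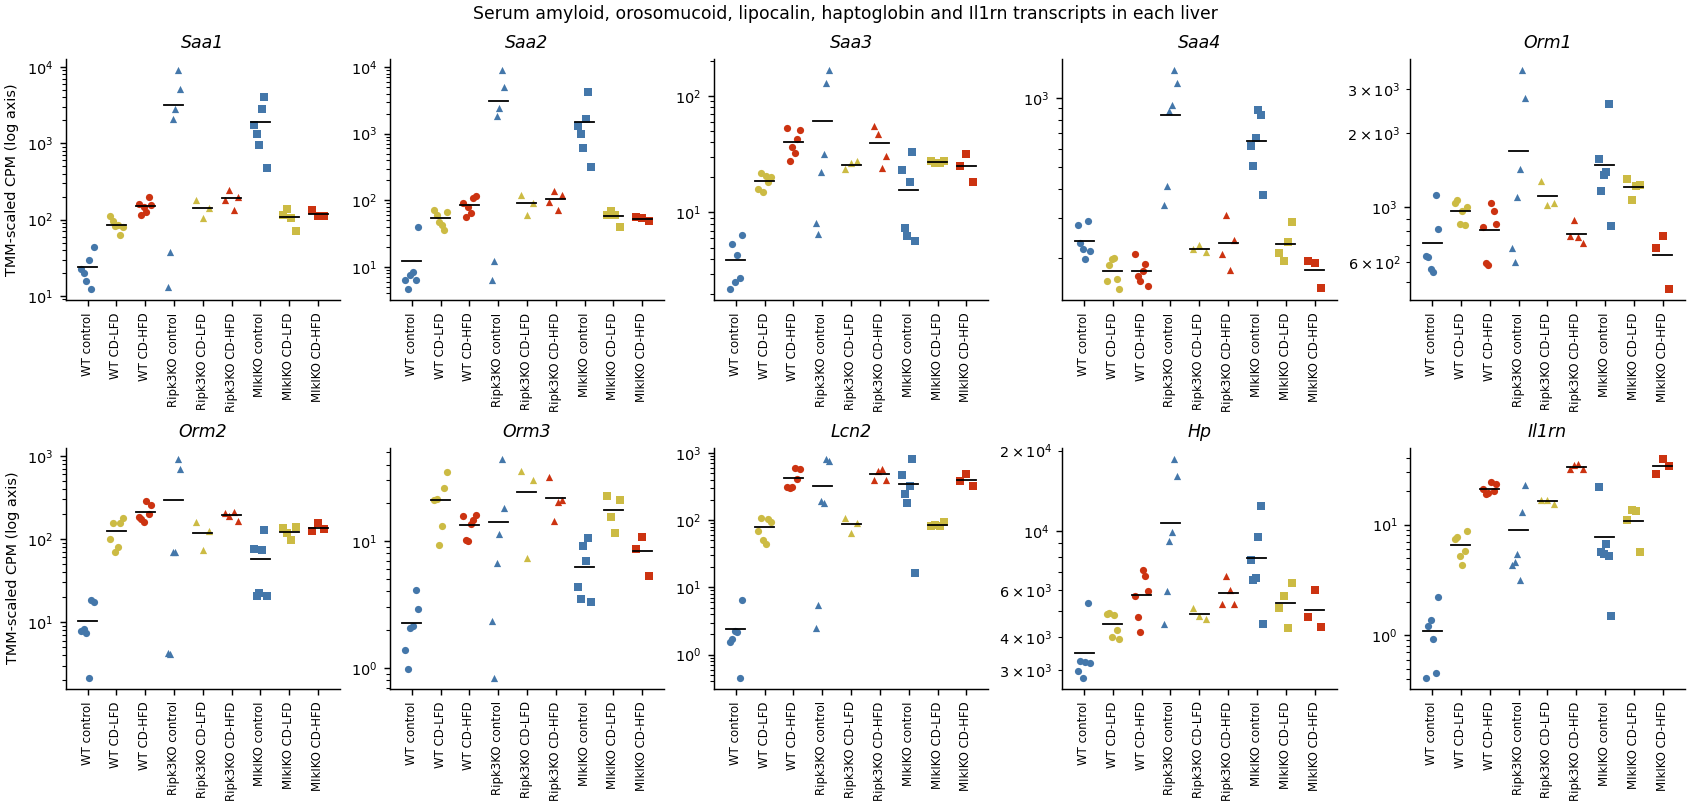
Level of each of the 10 genes in every liver, as TMM-scaled CPM on a log axis, by genotype (circle WT, triangle Ripk3KO, square MlklKO) and diet (blue control, yellow CD-LFD, red CD-HFD); black lines are group means. The group means of Saa1, Saa2 and Saa4 were highest in Ripk3KO and then MlklKO livers on control diet, and those of Il1rn were highest on CD-HFD in each genotype.

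In WT livers both choline-deficient diets raised most of these genes, Lcn2 furthest. On CD-HFD 8 of the 10 were higher than on control diet and none was lower, where 23.5% of all tested genes were called higher; Saa4 and Orm1 were not called. Over all genes 3496 were called higher and 3586 lower there, but 6813 and 1020 when libraries were scaled by their totals alone. The median log2 difference of the 10 was 2.74, against -0.07 over all tested genes. On CD-LFD 7 were higher and none lower (13.7% of all genes called higher), Hp joining the genes not called.

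Lcn2 in the 6 WT control livers was 1.52, 1.71, 2.21, 2.15, 0.456 and 6.60 CPM in order of replicate number. CD-LFD livers had 68.6, 107, 50.2, 44.6, 105 and 93.5 CPM, and CD-HFD livers 306, 304, 306, 593, 412.5 and 583. The 3 sets of values did not overlap, with every CD-HFD liver above every CD-LFD liver and these above every control liver. The log2 difference from control was 4.96 ± 0.84 (SE, adjusted p = 2.37e-05) on CD-LFD and 7.38 ± 0.89 (adjusted p = 6.82e-09) on CD-HFD. CD-HFD exceeded CD-LFD by 2.42 ± 0.66 (adjusted p = 0.00614).

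Il1rn followed the same order at a lower level: 0.414 to 2.20 CPM on control diet (median 1.07, n = 6), 4.34 to 8.79 on CD-LFD (median 6.60, n = 6) and 18.8 to 24.1 on CD-HFD (median 20.6, n = 6). Here too no liver of 1 diet reached the range of the next. The log2 differences were 2.55 ± 0.51 on CD-LFD (adjusted p = 0.000210) and 4.25 ± 0.48 on CD-HFD (adjusted p = 1.36e-09) against control, and 1.70 ± 0.35 between the 2 deficient diets (adjusted p = 0.000374). Lcn2 and Il1rn were the 2 members called between CD-HFD and CD-LFD in WT livers, where 13.7% of all genes were called higher. With only those 2 groups fitted 6 of the 10 were called, among 1828 of all genes called higher and 1256 lower. The clock ratio also differed between these groups, -6.05 to -2.09 on CD-HFD against -2.63 to -0.27 on CD-LFD. With a clock covariate 2 of the 10 were called, among 1811 of all genes called higher and 861 lower.

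The inducible serum amyloids rose by smaller log2 differences than Lcn2. Saa1 was 12.3 to 43.7 CPM in WT control livers (median 21.2), 62.2 to 111 on CD-LFD (median 83.5) and 114 to 197 on CD-HFD (median 152), with no overlap between control and either diet. Its log2 difference from control was 1.83 ± 0.65 on CD-LFD (adjusted p = 0.0325) and 2.64 ± 0.67 on CD-HFD (adjusted p = 0.00114). Saa2 was 4.64 to 8.30 CPM in 5 WT control livers and 39.6 in replicate 6, which lay above the lowest CD-LFD liver (36.2). Its log2 differences were 2.15 ± 0.78 (adjusted p = 0.0343) and 2.82 ± 0.79 (adjusted p = 0.00308). Saa3, the form also made outside hepatocytes, went from 2.21 to 6.35 CPM on control diet to 15.0 to 21.9 on CD-LFD and 27.5 to 52.7 on CD-HFD, a log2 difference of 3.39 ± 0.55 on CD-HFD (adjusted p = 2.40e-06). Saa4 was 198 to 290 CPM on control diet and 151 to 209 on CD-HFD, a difference of -0.45 ± 0.21 that did not pass the test (adjusted p = 0.0844).

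Among the orosomucoids it was the minor copies that rose. Orm2 stood at 7.87, 8.31, 7.32, 2.15, 18.7 and 17.4 CPM in WT control livers, and at 160 to 283 CPM (median 191) on CD-HFD. No CD-HFD liver came near the control range, and the log2 difference was 4.39 ± 0.76 (adjusted p = 6.53e-06). On CD-LFD, at 69.5 to 180 CPM, it was 3.63 ± 0.74 (adjusted p = 0.000275). Orm3 rose from 0.977 to 4.11 CPM to 9.25 to 34.8 on CD-LFD (3.30 ± 0.56, adjusted p = 2.38e-05) and 10.04 to 15.9 on CD-HFD (2.67 ± 0.56, adjusted p = 0.000139). Orm1 did not pass the test on either diet, though it did on both with scaling by library totals alone (0.66, adjusted p = 0.0460, on CD-HFD): 549 to 1121 CPM on control diet, 851 to 1065 on CD-LFD and 585 to 1038 on CD-HFD. Orm2 counts thus went from 0.392% to 2.12% of Orm1 counts in WT control livers to 20.7% to 30.0% on CD-HFD.

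Hp, already abundant, was 2994, 3249, 2820, 3219, 5388 and 3189 CPM in WT control livers and 4176 to 7149 on CD-HFD. The ranges overlapped through control replicate 5, and the log2 difference was 0.73 ± 0.23 (adjusted p = 0.00925). On CD-LFD, with 3926 to 4912 CPM, the difference of 0.36 ± 0.23 did not pass (adjusted p = 0.250).

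On control diet both knockouts stood above WT for all 10 genes by the test, and for Saa1, Saa2 and Lcn2 by a log2 difference of over 6. The Ripk3KO comparison called 10 of 10 higher, where 2.25% of all tested genes were called higher, and the MlklKO comparison called 10 of 10 higher, where 13% were called higher. The median log2 difference of the 10 was 3.47 in Ripk3KO and 2.27 in MlklKO livers, against -0.03 and -0.06 over all genes. The 2 comparisons share the 6 WT control livers. Individual livers differed widely, and the Ripk3KO count depends on the model: 6 of 10 were called when only those 2 groups were fitted, which called 33 of all genes higher, and 9 or 10 when any single library was left out. With scaling by library totals alone Orm3 did not pass in MlklKO (1.54, adjusted p = 0.0543).

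Saa1 in the 6 Ripk3KO control livers was 13.2, 37.9, 2075, 2811, 9103 and 5152 CPM in order of replicate number. The first 2 lay within the WT control range of 12.3 to 43.7, while the other 4 lay above every liver of every deficient-diet group. The MlklKO control livers had 1748, 1321, 955, 2811, 4053 and 473 CPM, all 6 above every WT liver. Against WT control the log2 difference was 7.05 ± 0.80 in Ripk3KO (adjusted p = 2.35e-07) and 6.29 ± 0.78 in MlklKO (adjusted p = 2.07e-07). These standard errors rest on 1 estimate of spread per gene over all 9 groups. The SD of log2 CPM of Saa1 was 3.96 within Ripk3KO control, 1.11 within MlklKO control and 0.65 within WT control livers.

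Saa2 repeated this liver by liver: 6.41, 12.4, 1868, 2424, 9038 and 5048 CPM in Ripk3KO and 1308, 978, 616, 1671, 4160 and 311 in MlklKO, with log2 differences of 7.98 ± 0.96 (adjusted p = 6.40e-07) and 6.95 ± 0.93 (adjusted p = 7.83e-07). Saa2 counts per Saa1 count were 0.235 to 0.905 in WT control livers (median 0.377), 0.862 to 0.993 in Ripk3KO control replicates 3 to 6, and 0.594 to 1.03 in MlklKO control livers. Both genes lie on chromosome 7 and share sequence, as printed above, and whether reads were moved between them was not tested.

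Lcn2 was 2.53 and 5.45 CPM in Ripk3KO control replicates 1 and 2, within the WT control range, and 190, 179, 806 and 765 in replicates 3 to 6. MlklKO control livers had 460, 240, 182, 320, 818 and 16.3 CPM, replicate 6 being the lowest and still above the highest WT control liver at 6.60. The log2 differences were 7.01 ± 0.89 in Ripk3KO (adjusted p = 1.19e-06) and 7.08 ± 0.89 in MlklKO (adjusted p = 2.58e-07).

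Saa4, which did not pass the test on diet in WT livers, was above the WT control range of 198 to 290 CPM in all 12 knockout control livers. It reached 339 and 413 CPM in Ripk3KO replicates 1 and 2 and 877 to 1320 in the other 4, and 375 to 885 in MlklKO. Its log2 difference was 1.82 ± 0.22 (adjusted p = 6.40e-07) in Ripk3KO and 1.44 ± 0.22 (adjusted p = 5.51e-06) in MlklKO. Saa3 was above every WT control liver in all 6 Ripk3KO livers, at 6.49 to 166 CPM (3.97 ± 0.56, adjusted p = 1.20e-05), and in 4 of 6 MlklKO livers, at 5.67 to 32.99 CPM (2.02 ± 0.56, adjusted p = 0.00643).

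Hp was 4486, 5981, 9157, 9940, 18674 and 16120 CPM in Ripk3KO control livers and 7776, 6558, 6662, 9532, 12434 and 4494 in MlklKO. In each knockout 5 of 6 livers were above the highest WT control liver. The log2 differences were 1.63 ± 0.24 (adjusted p = 2.58e-05) and 1.19 ± 0.24 (adjusted p = 0.000232). Orm1 rose by less, 1.24 ± 0.28 (adjusted p = 0.00606) and 1.05 ± 0.28 (adjusted p = 0.00476), with 3 and 5 of 6 livers above the WT range.

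Orm2 also spread widely within each knockout group. Ripk3KO control livers had 4.28, 4.19, 70.1, 68.8, 925.5 and 701 CPM, and MlklKO control livers 75.2, 20.6, 22.5, 73.7, 129.5 and 20.7. Replicates 1 and 2 of Ripk3KO lay within the WT range of 2.15 to 18.7, and all 6 MlklKO livers lay above it. The log2 differences were 4.89 ± 0.77 (adjusted p = 7.82e-05) and 2.51 ± 0.72 (adjusted p = 0.00810). Orm3 (2.76 ± 0.57, adjusted p = 0.00220, and 1.62 ± 0.59, adjusted p = 0.0379) and Il1rn (2.97 ± 0.51, adjusted p = 0.000236, and 2.76 ± 0.51, adjusted p = 0.000102) rose in both knockouts too. Il1rn was 4.28 and 4.61 CPM even in Ripk3KO replicates 1 and 2, above the highest WT control liver at 2.20, and was 21.98 CPM in MlklKO replicate 1 but 1.49 in replicate 6.

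**Figure D2:**
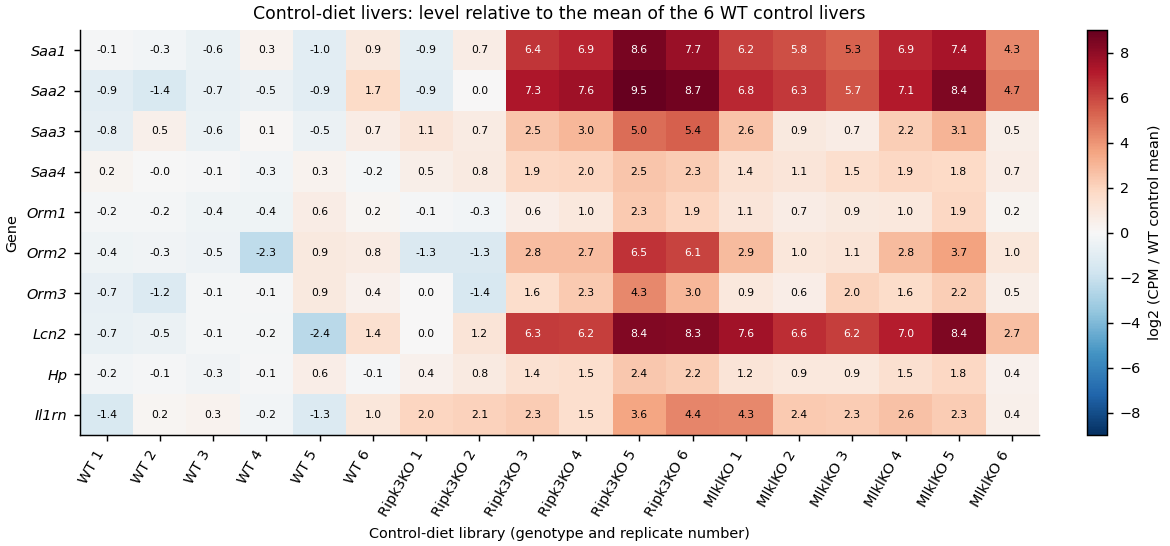
Level of each gene in each of the 18 control-diet livers, as log2 of its CPM over the mean of the 6 WT control livers; red is above and blue below that mean. Ripk3KO replicates 1 and 2 resembled WT livers in Saa1, Saa2 and Lcn2, Ripk3KO replicates 3 to 6 and MlklKO replicates 1 to 5 were far above, and MlklKO replicate 6 was in between.

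Other measures moved with these levels. The metallothionein transcript Mt1 was 84.0 and 86.5 CPM in Ripk3KO control replicates 1 and 2 and 1000 to 1365 in replicates 3 to 6, and 2003 to 4132 CPM in MlklKO replicates 1 to 5 but 24.2 in replicate 6, against 5.84 to 18.7 in WT. Mt1 thus separated the same Ripk3KO livers as Saa1, but MlklKO replicate 6 had 473 CPM of Saa1 with little Mt1, and the part of Mt1's rise in the levels of the 10 genes was not tested. The summed level of 13 neutrophil markers was 1.54 to 16.9 CPM in WT control, 2.51 to 16.5 in Ripk3KO control and 5.07 to 19.5 in MlklKO control livers, with the defining marker Ly6g at 0 in all WT control livers. The sum of 12 macrophage and Kupffer cell markers was 155 to 214, 60.3 to 330 and 93.3 to 228 CPM in the same groups, and none of the 12 was called between either knockout and WT. The Ripk3KO livers above the WT range were replicates 5 and 6, with 330 and 274 CPM against 60.3 to 151 in the other 4, and these were also the 2 Ripk3KO control livers with the highest level of each of the 10 genes. Their summed cholangiocyte markers, 90.4 and 97.9 CPM, were likewise above the other 4 (46.5 to 52.3) and WT (44.9 to 83.1). In MlklKO control livers the cholangiocyte sum was 77.5 to 146 CPM, with 2 of 6 markers called higher, where 13% of all genes were called higher. The 6 adipocyte markers summed to 8939 and 6472 CPM in Ripk3KO replicates 1 and 2 and 3025 to 5139 in replicates 3 to 6. They summed to 6924 CPM in MlklKO replicate 6 and 2422 to 5073 in replicates 1 to 5, against 3041 to 4931 in WT. Hepatocyte sums were 155642 and 139480 CPM in Ripk3KO replicates 1 and 2. In replicates 3 to 6 they were 113522 to 140645, and all 6 lay within the WT range of 88658.5 to 161849. The part of these cells and markers in the levels of the 10 genes was not tested.

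Libraries with similar clock gene ratios were also compared. WT control replicates 2 and 4, with log2 Arntl to Dbp ratios of -5.67 and -7.47, resembled the knockout livers in this respect, and had 19.8 and 29.8 CPM of Saa1 and 1.71 and 2.15 of Lcn2. With only libraries under a ratio of -3 kept, which leaves those 2 WT control livers, the Ripk3KO difference was 7.04 for Saa1 (adjusted p = 0.0185) and 7.41 for Lcn2 (adjusted p = 0.0278), and 5 of 10 genes remained called higher (Saa1, Saa2, Saa4, Lcn2 and Hp), with 67 of all genes called higher. The 5 that no longer passed had differences of 5.78 for Orm2, 3.64 for Saa3, 3.25 for Orm3, 2.99 for Il1rn and 1.54 for Orm1, against 4.89, 3.97, 2.76, 2.97 and 1.24 with all libraries. The MlklKO difference was 6.29 for Saa1 (adjusted p = 0.00495) and 7.48 for Lcn2 (adjusted p = 0.00460), and 7 of 10 were called, with 1027 of all genes called higher; Saa3 (1.70), Orm2 (3.41) and Orm3 (2.10) no longer passed. In WT livers the Saa1 difference on CD-HFD was 2.66 and no longer passed (adjusted p = 0.0710). That restriction was added after seeing the data.

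On the choline-deficient diets no difference between a knockout and WT passed the test for any of the 10 genes in any of the 4 comparisons, by edgeR or by DESeq2. The comparisons called 1.1% of all genes for Ripk3KO and 2.56% for MlklKO on CD-LFD, and 0.377% for Ripk3KO and 0% for MlklKO on CD-HFD. On CD-LFD the log2 Arntl to Dbp ratio was -2.63 to -0.27 in WT livers, above -7.06 to -5.91 in Ripk3KO and -6.70 to -5.73 in MlklKO livers, and no WT CD-LFD liver was under -3. With a clock covariate the genes called there went from 164 to 9 for Ripk3KO and from 381 to 16 for MlklKO, and still none of the 10 passed. An unadjusted p under 0.05 was reached by 1 member, Il1rn in Ripk3KO on CD-LFD, and how many of all genes reached it was not counted. Saa1 was 104 to 179 CPM in Ripk3KO CD-LFD, 132 to 243 in Ripk3KO CD-HFD, 69.99 to 139 in MlklKO CD-LFD and 110 to 133 in MlklKO CD-HFD livers, overlapping WT on the same diet each time. Lcn2 on CD-HFD was 394 to 581 CPM in Ripk3KO and 321 to 485 in MlklKO against 304 to 593 in WT, with log2 differences of 0.19 ± 0.70 and -0.08 ± 0.77.

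Some ranges parted without passing. How many of all tested genes had parted ranges in these small groups was not counted. Il1rn was 15.4 to 16.9 CPM in Ripk3KO CD-LFD livers against 4.34 to 8.79 in WT (1.32 ± 0.42, adjusted p = 0.134). On CD-HFD it was 31.6 to 35.3 CPM in Ripk3KO and 28.55 to 39.5 in MlklKO against 18.8 to 24.1 in WT (0.66 ± 0.36, adjusted p = 0.634, and 0.68 ± 0.39, adjusted p = 0.608). All 10 knockout livers of these 3 groups were thus above every WT liver on the same diet. Saa3 was likewise above WT in Ripk3KO and MlklKO CD-LFD livers, Saa4 in Ripk3KO CD-LFD and Orm1 in MlklKO CD-LFD livers, while Saa2 and Orm2 in MlklKO CD-HFD livers were below WT, all by less than 0.75 on the log2 scale. When only the compared groups were fitted, 1 of the 10 genes was called in each comparison except MlklKO on CD-HFD. Over all genes these fits called 233 (CD-LFD) and 252 (CD-HFD) for Ripk3KO, while for MlklKO they called 576 (CD-LFD) and 2 (CD-HFD).

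In the knockouts several of the genes that these diets raised in WT livers were lower on the diets than on control chow. In Ripk3KO livers CD-HFD against control called Il1rn higher and Saa1, Saa2, Saa4, Orm1 and Hp lower, where 24.6% of all genes were called higher and 21.7% lower. CD-LFD called Saa1, Saa2, Saa4 and Hp lower, where 10.1% were called lower (1501 genes, or 513 with scaling by library totals alone). In MlklKO livers CD-HFD called Il1rn higher and Saa1, Saa2, Saa4 and Orm1 lower (24.9% of all genes called higher and 20.3% lower), and CD-LFD called Orm3 higher and Saa1, Saa2, Saa4 and Lcn2 lower (19.7% higher and 18.3% lower). With scaling by library totals alone the falls of Orm1 and Hp on CD-HFD in Ripk3KO, of Orm1 on CD-HFD in MlklKO and of Lcn2 on CD-LFD in MlklKO no longer passed. In Ripk3KO replicates 1 and 2 the control-diet level of Saa1 (13.2 and 37.9 CPM) was below that of every deficient-diet liver, so the ranges overlapped, while in MlklKO all control livers lay above all deficient-diet livers. Saa1 fell by 4.08 ± 0.82 on the log2 scale in Ripk3KO (adjusted p = 7.98e-05) and fell by 3.996 ± 0.93 in MlklKO livers on CD-HFD (adjusted p = 0.000520), and Saa4 fell by 1.85 ± 0.26 (adjusted p = 1.30e-07) and 1.87 ± 0.29 (adjusted p = 1.00e-06). Il1rn rose by 1.93 ± 0.38 (adjusted p = 5.64e-05) and 2.18 ± 0.41 (adjusted p = 2.89e-05). For Lcn2 the differences on CD-HFD, 0.55 ± 0.69 and 0.22 ± 0.76, did not pass. With only the 2 groups fitted, 1 of the 10 was called between Ripk3KO CD-LFD and control, where 1194 of all genes were called higher and 1058 lower.

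Between the 2 deficient diets the knockouts gave few calls. None of the 10 passed in Ripk3KO by edgeR or DESeq2, 2 had an unadjusted p under 0.05, and 8.83% of all genes were called. How many of all genes had such an unadjusted p was not counted. All 4 CD-HFD livers exceeded the 3 CD-LFD livers for Lcn2 (394 to 581 against 65.1 to 109 CPM, 2.43 ± 0.91, adjusted p = 0.0884). They did so too for Il1rn (31.6 to 35.3 against 15.4 to 16.9 CPM), Orm2 (167 to 209 against 72.9 to 160) and Hp (5326 to 6808 against 4664 to 5158). For Orm1 they were all lower (717 to 891 against 1020 to 1275 CPM). In MlklKO, where 14.6% were called higher, Lcn2 (2.22 ± 0.84, adjusted p = 0.0490) and Il1rn (1.64 ± 0.44, adjusted p = 0.00573) were higher on CD-HFD. Leaving out any 1 library of that pair left 1 of the 10 called, as did a clock covariate, which called 2072 of all genes higher and 1382 lower. With only the compared groups fitted 3 of the 10 were called in Ripk3KO and 4 in MlklKO, where the genes called over all went from 1312 to 2821 and from 3523 to 4490.

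The difference between genotypes in the diet response was tested as an interaction, which was negative for all 10 genes in all 4 tests. Both knockouts were called above WT for all 10 genes on control diet and for none on a deficient diet. For CD-HFD in Ripk3KO it passed for 7 genes (Saa1, Saa2, Saa3, Saa4, Orm2, Lcn2 and Hp), where 0.343% of all genes were called lower, and in MlklKO for 6 (Saa1, Saa2, Saa3, Saa4, Lcn2 and Hp), where 2.54% were called lower. For CD-LFD it passed in Ripk3KO for Saa1, Saa2 and Lcn2, which were 3 of the 4 genes called among all 14862 (0.0202% called lower), and in MlklKO for Saa1, Saa2, Saa4, Lcn2 and Il1rn (4.08% called lower). The Lcn2 interaction was -6.83 ± 1.16 for CD-HFD in Ripk3KO (adjusted p = 0.00289) and -7.16 ± 1.28 in MlklKO (adjusted p = 0.00101). The CD-LFD result in Ripk3KO rests on few livers: without any 1 of the 3 Ripk3KO CD-LFD libraries no member was called, and without Ripk3KO control replicate 1 or 2 there were 7 or 6. DESeq2 called 7, with 25 of all genes called lower, and with only the compared groups fitted none was called, nor any other gene. For CD-HFD in Ripk3KO 3 were called with only the compared groups, which called 16 of all genes lower, and 4 without Ripk3KO CD-HFD replicate 5. Among libraries with a clock ratio under -3 only Saa1 and Saa2 of the 10 passed there, with 46 of all genes called lower, and Lcn2 did not (-7.33, adjusted p = 0.0572). For CD-HFD in MlklKO 3 were called without CD-HFD replicate 4, and Saa3 did not pass under the clock limit (adjusted p = 0.216). For CD-LFD in MlklKO 3 were called with a clock covariate, with 515 of all genes called lower, and 3 without WT control replicate 4, WT CD-LFD replicate 2, MlklKO control replicate 1 or 4, or MlklKO CD-LFD replicate 1, 2 or 3.

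**Figure D3:**
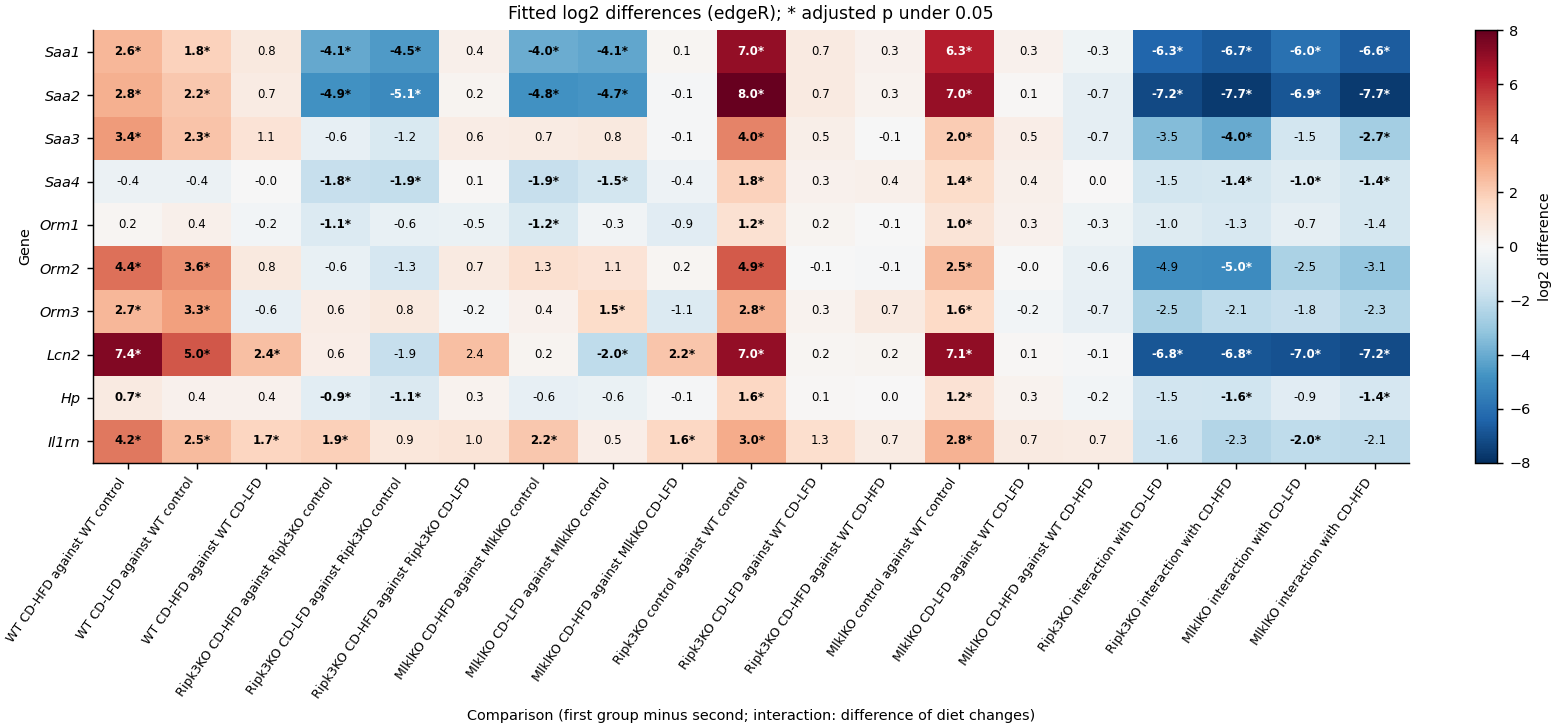
Fitted log2 difference of each gene in each of the 19 comparisons, red for higher and blue for lower in the first group named; an asterisk marks an adjusted p under 0.05. The columns of both knockouts against WT on control diet were called for all 10 genes, and the 4 columns on deficient diets for none.

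The proportions among the genes differed between control diet and CD-HFD. Lcn2 counts per Saa1 count were 0.0370 to 0.151 in WT control livers, 0.0344 to 0.263 in the knockout control livers, 0.524 to 1.69 on CD-LFD over the 3 genotypes and 1.92 to 4.76 on CD-HFD, with no overlap between the diets. Orm2 counts as a percentage of Orm1 counts were 17.99% to 30.0% on CD-HFD over all genotypes, and 1.66% to 5.30% in MlklKO control livers despite their Saa1 level. In Ripk3KO control replicates 5 and 6, by contrast, Orm2 was 25.7% and 25.4% of Orm1. As a description over the 18 control-diet livers, whose points share genotype groups and libraries, Spearman's rho between pairs of members ran from 0.67 (Orm3 and Il1rn) to 0.96 (Saa1 and Saa2). Over the 26 livers on deficient diets it ran from -0.60 (Orm1 and Il1rn) to 0.86 (Saa1 and Saa2).

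**Figure D4:**
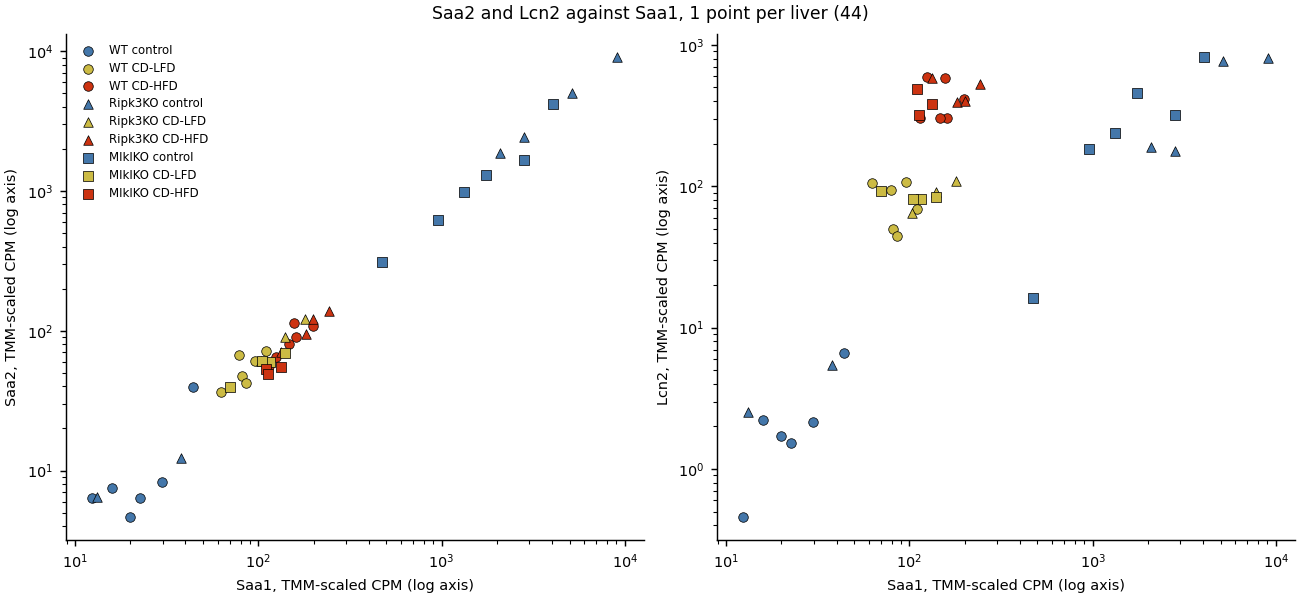
Saa2 (left) and Lcn2 (right) against Saa1 in all 44 livers, in TMM-scaled CPM on log axes, with shape for genotype and colour for diet. Saa2 followed Saa1 along a single band over all groups, while Lcn2 relative to Saa1 was highest on CD-HFD (red), lower on CD-LFD (yellow) and lowest on control diet (blue). Control-diet livers had Saa1 levels of at most 43.7 or at least 473 CPM, so none shared a level with the deficient-diet livers at 62.2 to 243 CPM.

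Genes outside the list with the most similar levels differed by member. Over all 44 livers the 3 nearest by Spearman's rho were Lrg1 (0.82), Serpina10 (0.81) and Tifa (0.77) for Saa2, Cxcl14, Tmem176b and Bin2 (each 0.83) for Orm2, and Tlr2 (0.88), Alpk1 (0.87) and Icam1 (0.86) for Lcn2. For Hp they were Lrg1 (0.87), Mt1 (0.85) and Fgl1 (0.84), and for Il1rn Cd14 (0.91), C5ar1 (0.88) and Vcam1 (0.88). Within the 18 control-diet livers they were Cd302 (0.88), Itih3 (0.88) and Prg4 (0.87) for Saa2, Itih3 (0.95), Fgl1 (0.92) and Hpx (0.88) for Orm2, Osmr (0.93), Clcn7 (0.93) and Cp (0.92) for Lcn2, Fgl1 (0.92), Prg4 (0.91) and Apcs (0.91) for Hp, and Cp (0.90), Rlf (0.89) and Ighg2b (0.89) for Il1rn.

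Among the other genes of the response, counts called are to be set beside all 14862 tested genes, of which 3496 were higher and 3586 lower on CD-HFD in WT livers, 1932 and 2097 in MlklKO control livers, and 334 and 331 in Ripk3KO control livers. Of 23 tested hepatocyte acute-phase genes outside the list, 5 were higher and 13 lower on CD-HFD in WT livers (median log2 difference -0.74), but 6 and 1 with scaling by library totals alone (median -0.23), while 15 were higher and none lower in MlklKO control livers (median 1.11) and 14 higher and none lower in Ripk3KO control livers (median 1.08). The 2 furthest rises on CD-HFD were Cd14, the lipopolysaccharide co-receptor (3.88 ± 0.38, adjusted p = 4.58e-11), and Vnn1, a pantetheinase (1.32 ± 0.26, adjusted p = 5.40e-05), and the 2 furthest falls were Plg, plasminogen (-1.18 ± 0.34, adjusted p = 0.00378), and Fga, fibrinogen alpha (-1.04 ± 0.39, adjusted p = 0.0258), neither of which passed with scaling by totals alone (-0.66 and -0.53). The macrophage marker sum was 958 to 2567 CPM in these CD-HFD livers against 155 to 214 in WT control. Which cells the Cd14 transcripts came from was not tested. In MlklKO control livers the 2 furthest rises were the protease inhibitor Serpina3n (4.03 ± 0.43, adjusted p = 2.19e-08), at 3307 ± 1828 CPM against 201 ± 87.0, and Steap4, a metalloreductase (3.72 ± 0.53, adjusted p = 2.41e-06). Of these 23 genes none was called between a knockout and WT on either deficient diet, where 0% to 2.56% of all genes were called, so that a count of 0 is near the background.

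Of 12 plasma-protein and cytochrome genes that fall in an acute-phase response, 8 were lower and 1 higher on CD-HFD in WT livers, or 3 and 1 with scaling by library totals alone, among them Cyp2c29 (-6.15 ± 0.52, adjusted p = 8.47e-13) and Cyp7b1, an oxysterol hydroxylase (-2.83 ± 0.31, adjusted p = 5.28e-10), with Ahsg, fetuin A, as the rise (0.40 ± 0.15, adjusted p = 0.0240). In MlklKO control livers 2 were higher, Cyp7b1 (0.77 ± 0.29, adjusted p = 0.0421, and 0.0526 with scaling by totals alone) and Ahsg (0.71 ± 0.15, adjusted p = 0.000497), and 1 lower, Serpina6, corticosteroid-binding globulin (-0.97 ± 0.27, adjusted p = 0.00776). In Ripk3KO control livers 1 was higher and none lower.

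Of the cytokines that induce these proteins, Il6 was too low to test, with no counts in WT or MlklKO control livers and a group mean of at most 0.165 CPM. Of 14 tested cytokine and receptor genes 5 were higher and 3 lower on CD-HFD in WT livers (3496 and 3586 of 14862 over all genes), 6 and 2 in MlklKO control livers (1932 and 2097) and 4 and 2 in Ripk3KO control livers (334 and 331). Osm, oncostatin M, had no counts in the 6 WT control livers and 1.0003 ± 0.459 CPM on CD-HFD (adjusted p = 4.75e-06), and Tnf went from 0.214 ± 0.382 to 2.46 ± 0.544 CPM (adjusted p = 1.47e-06). Tnf was likewise called higher on both deficient diets in each knockout, and was not called in either knockout on control diet. Lifr, a receptor of the interleukin-6 family (-1.60 ± 0.25, adjusted p = 9.06e-07), and Il1b (-1.35 ± 0.40, adjusted p = 0.00496, and 0.0521 with scaling by totals alone) were lower on CD-HFD. In MlklKO control livers Il1r1, the receptor that the product of Il1rn occupies, was 449 ± 204 CPM against 40.6 ± 9.76 in WT (3.46 ± 0.30, adjusted p = 1.38e-10), and Osmr 23.2 ± 15.1 against 3.64 ± 2.42 (2.62 ± 0.42, adjusted p = 1.32e-05), while Il1b (-1.59 ± 0.42, adjusted p = 0.00464) and Il1a (-1.30 ± 0.33, adjusted p = 0.00290) were lower. Il1b was also lower in Ripk3KO control livers (-1.57 ± 0.42, adjusted p = 0.0232).

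Of 24 tested signalling and transcription factor genes downstream of those receptors, 14 were higher and none lower in MlklKO control livers, where 13% of all genes were called higher. In Ripk3KO control livers 9 were higher and none lower (2.25% of all genes higher), and on CD-HFD in WT livers 9 were higher and 4 lower (23.5% of all genes higher), or 14 and none with scaling by library totals alone. Stat3 was 341 ± 142 CPM in MlklKO and 264 ± 108 in Ripk3KO control livers against 109 ± 34.1 in WT (1.64 ± 0.24, adjusted p = 3.57e-06, and 1.27 ± 0.24, adjusted p = 0.000857), and at 82.4 ± 12.6 CPM on CD-HFD in WT livers it did not pass (-0.41 ± 0.24, adjusted p = 0.152). Socs3, which STAT3 induces and which restrains it, was 104 ± 74.2 CPM in MlklKO and 36.5 ± 11.0 in Ripk3KO against 14.8 ± 10.7 in WT control livers (2.84 ± 0.40, adjusted p = 1.52e-06, and 1.33 ± 0.39, adjusted p = 0.0361), and 23.0 ± 4.10 on CD-HFD (0.66 ± 0.38, adjusted p = 0.155). With scaling by totals alone the Socs3 difference passed on CD-HFD (1.12, adjusted p = 0.0165) and not in Ripk3KO (1.17, adjusted p = 0.0666).

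Cebpd rose in all 3 settings: 2.05 ± 0.23 on CD-HFD in WT (adjusted p = 7.89e-10), 1.80 ± 0.23 in MlklKO control (adjusted p = 3.08e-07) and 1.35 ± 0.23 in Ripk3KO control livers (adjusted p = 0.000236). Cebpb rose in the same 3, by 0.51 ± 0.19 (adjusted p = 0.0235), 1.03 ± 0.19 (adjusted p = 9.59e-05) and 0.94 ± 0.19 (adjusted p = 0.00187). Tnfaip3, the NF-kappa B inhibitor A20, rose by 2.81 ± 0.44 on CD-HFD in WT (adjusted p = 1.34e-06) and by 2.66 ± 0.45 in MlklKO control livers (adjusted p = 2.97e-05). Cebpa, a factor of differentiated hepatocytes, was lower on CD-HFD (-0.75 ± 0.18, adjusted p = 0.000495), which did not pass with scaling by totals alone (-0.25). The signalling interaction with CD-HFD in MlklKO was called lower for 7 of the 24, Stat3 and Socs3 among them, where 2.54% of all genes were called lower. In Ripk3KO it was called for none of the 24, where 0.343% were called lower, and the 2 interactions were not tested against each other.

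Genes for receptors and partners of the encoded proteins completed the set. Of 17 tested, 9 were higher and 4 lower on CD-HFD in WT livers (23.5% of all genes higher), 5 higher and none lower in MlklKO control livers (13%) and 4 higher and none lower in Ripk3KO control livers (2.25%). Tlr2, at which serum amyloid A can act, rose on CD-HFD (3.17 ± 0.56, adjusted p = 1.04e-05) and in MlklKO control livers (2.85 ± 0.57, adjusted p = 0.000267), and Cd36, a scavenger receptor, rose on CD-HFD (2.60 ± 0.26, adjusted p = 8.98e-11). Cd163, the macrophage receptor for haptoglobin bound to haemoglobin, was 0.155 ± 0.138 CPM on CD-HFD against 9.79 ± 2.80 in WT control livers (adjusted p = 1.01e-09), and Lrp2, megalin, which takes up lipocalin 2 in kidney, was 0.259 ± 0.278 against 1.93 ± 0.667 (adjusted p = 0.00247).

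On CD-HFD markers of several cell types moved with Lcn2, Il1rn and Saa3 in WT livers. Counts of markers called are to be set beside the 14862 tested genes. CD-HFD called 3496 of these higher and 3586 lower in WT, 3657 and 3227 in Ripk3KO, and 3699 and 3019 in MlklKO. CD-LFD called 2040 higher and 2077 lower in WT. In the knockouts Il1rn was higher on CD-HFD, while Lcn2 and Saa3 were not called between CD-HFD and control diet (Saa3 -0.64 ± 0.50 in Ripk3KO, adjusted p = 0.310, and 0.68 ± 0.56 in MlklKO, adjusted p = 0.328). The summed macrophage markers were 958 to 2567 CPM in WT, 1329 to 1864 in Ripk3KO and 1419 to 2394 in MlklKO CD-HFD livers, against 60.3 to 330 over all control-diet livers, and 8 of the 12 markers were called higher and 1 to 3 lower on CD-HFD in each genotype. The 13 neutrophil markers summed to 19.6 to 36.5 CPM in WT CD-HFD livers, above the 1.54 to 16.9 of WT control livers, and 3 of the 5 tested were called higher and none lower. In Ripk3KO 2 and in MlklKO 1 of the 5 were higher on CD-HFD, with sums of 14.2 to 28.8 CPM against 2.51 to 16.5 and 20.5 to 38.4 against 5.07 to 19.5. Among the 13, Ly6g had no counts in WT and Ripk3KO CD-HFD livers. All 6 cholangiocyte markers were called higher on CD-HFD in each genotype, and their sum was 680 to 1128 CPM in WT, 631 to 1185 in Ripk3KO and 729 to 1058 in MlklKO, against 44.9 to 83.1 in WT control livers. Of the 7 stellate cell markers 5 were called higher in each genotype, with a sum of 206 to 497 CPM in WT against 67.6 to 149 on control diet. Of 6 tested T, B and plasma cell markers 3 were higher in WT and 5 in each knockout. Of 6 endothelial markers 4 were lower in WT, 3 in Ripk3KO and 1 in MlklKO, where the sums overlapped (112 to 150 CPM on CD-HFD against 117 to 176 on control diet). Of 8 hepatocyte markers 7 were lower in WT, or 3 with scaling by library totals alone, 6 in Ripk3KO and 4 in MlklKO. The knockout marker counts were not refitted with that scaling. Over all genes it took calls lower from 3227 to 737 in Ripk3KO and from 3019 to 727 in MlklKO. On CD-LFD in WT livers 6 of the 12 macrophage markers were higher and 2 lower than on control diet, with a sum of 212 to 363 CPM against 155 to 214. There 4 of 6 cholangiocyte (sum 121 to 349 CPM), 4 of 7 stellate and 3 of 6 tested T, B and plasma cell markers were higher, and 3 of 8 hepatocyte and 3 of 6 endothelial markers were lower. The part of these markers in the levels of the 10 genes was not tested.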

How the data were processed

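Per the labels' protocols, total RNA was taken from about 25 mg of liver with a Qiagen RNeasy kit and made into libraries with a directional kit. The authors deposited a table of read counts per Ensembl gene for 44 libraries, and the submitters' processing notes name FastQC, STAR, HTSeq, edgeR and limma with the builds GRCm39 and mm39; versions, parameters and the strand setting of the counting are not given in the sources used here. Of 35249 rows, 34373 received a symbol. Nothing beyond a replicate number says that replicates were separate animals, so p-values measure the spread between these samples. Libraries of a group differed by a chi-square of at least 7.22 per degree of freedom, and none was treated as a copy.

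Counts were filtered with filterByExpr (minimum count 10), which kept 14862 genes with 99.8% of counts, and scaled by TMM. A quasi-likelihood model with 9 group means was fitted over all libraries in edgeR 4.0.16 under R 4.3.3, and 19 comparisons (9 of diets, 6 of genotypes and 4 interactions) were tested with Benjamini-Hochberg adjustment over all genes and a threshold of 0.05. Standard errors are the log2 difference over the root of F. The model was tested on simulated counts. The clock ratio is of CPM with 0.5 added. Alternatives were RLE and library-size scaling, no filter, DESeq2 1.42.0, the compared groups alone, a clock covariate, a replicate block, leaving out each library, and leaving out WT control replicates 5 and 6; a restriction to libraries with a log2 Arntl to Dbp ratio under -3, and gene lists refitted with other scalings, were added after seeing the data.

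The members and all gene lists were chosen with earlier results of these data known. Named genes are the 10 members, the 2 furthest called rises and falls of each list in WT CD-HFD against WT control and in MlklKO control against WT control, 7 regulators, and for 5 members the 3 nearest genes by Spearman's rho. Other genes (Mt1, Arntl, Dbp and markers) were chosen after their values were seen or as cell type markers. A gene that this rule names is not reported here.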

Additional observations from a re-analysis of the deposited data

Results flagged for a closer look

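Single livers stood apart from their group in 2 of the 70 sets of 4 or 6 values examined, and chance gives about 1 in 20 such sets. Saa2 in WT control replicate 6 was 39.6 CPM while the other 5 livers lay at 4.64 to 8.30, and Hp in WT control replicate 5 was 5388 CPM while the others lay at 2820 to 3249.

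The interaction test passed for 21 combinations of gene, knockout and diet. Each was negative, the knockout's change from its own control-diet level being below the change in WT. For CD-LFD in Ripk3KO these were Saa1 (-6.33), Saa2 (-7.24) and Lcn2 (-6.83), on the log2 scale. For CD-HFD in Ripk3KO they were Saa1 (-6.71), Saa2 (-7.67), Saa3 (-4.03), Saa4 (-1.40), Orm2 (-5.01), Lcn2 (-6.83) and Hp (-1.60). In MlklKO the CD-LFD interactions were Saa1 (-5.97), Saa2 (-6.87), Saa4 (-1.04), Lcn2 (-6.96) and Il1rn (-2.02), and those for CD-HFD were Saa1 (-6.63), Saa2 (-7.66), Saa3 (-2.71), Saa4 (-1.42), Lcn2 (-7.16) and Hp (-1.37). All of them share the 6 WT control livers and the control livers of their knockout.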

How the results depend on the processing

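Over 3900 refits of a member in a comparison, 3676 kept their direction and side of the threshold, 155 lost and 69 gained a call, and none reversed. Counts of the 10 genes called moved by over 1.5 times as follows. For the Ripk3KO interaction with CD-LFD (3 called) the count was 6 without the count filter, 7 by DESeq2, 0 with only the compared groups and 0 to 7 without single libraries. Over all genes 4 were called, 22 without the filter, 33 by DESeq2 and 0 with only the compared groups. For the Ripk3KO interaction with CD-HFD (7) the member count was 3 with only the compared groups, 2 among libraries with a clock ratio under -3 and 4 to 8 without single libraries, lowest without Ripk3KO CD-HFD replicate 5. Over all genes 71 were called, 20 with only the compared groups and 67 under the clock ratio limit. For the MlklKO interaction with CD-LFD (5) the member count was 3 with the clock covariate and 3 to 6 without single libraries, and for that with CD-HFD (6) it was 3 to 8, lowest without MlklKO CD-HFD replicate 4. All genes called for CD-LFD went from 1256 to 989 with the covariate. For MlklKO CD-HFD against CD-LFD (2) the member count was 1 with the clock covariate, 1 under the clock ratio limit, 4 with only the compared groups and 1 whichever single library was left out. Over all genes 3523 were called, 3454 with the covariate, 4481 under the limit and 4490 with only the compared groups. MlklKO CD-LFD against control (5) gave 3 to 6, lowest without MlklKO CD-LFD replicate 1. With only the compared groups, WT CD-HFD against CD-LFD (2) gave 6, Ripk3KO CD-LFD against control (4) gave 1, Ripk3KO CD-HFD against CD-LFD (0) gave 3, Ripk3KO against WT on control diet (10) gave 6, and Ripk3KO on CD-LFD and CD-HFD and MlklKO on CD-LFD against WT (0) each gave 1. Ripk3KO against WT on control diet gave 5 under the clock ratio limit. The cause was not tested, and the restricted fits also held fewer samples.

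The replicate numbers do not pair the samples: livers with the same number in different groups had a median correlation of deviations of -0.0114 over 146 pairs. With the replicate block the Ripk3KO interaction with CD-LFD gave 0 members called, and 0 of all genes, and no other count of members moved by over 1.5 times.

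Scaling by library size alone moved the median of all genes in WT CD-HFD against control from -0.07 to 0.43, with upward shifts in the other diet comparisons too. Calls higher and lower went from 3496 and 3586 to 6813 and 1020 there, from 2040 and 2077 to 4142 and 737 on CD-LFD, from 3657 and 3227 to 6870 and 737 for CD-HFD in Ripk3KO, from 2075 and 1501 to 3910 and 513 for CD-LFD in Ripk3KO, from 3699 and 3019 to 6364 and 727 for CD-HFD and from 2925 and 2713 to 3733 and 1913 for CD-LFD in MlklKO. Between CD-HFD and CD-LFD they went from 2040 and 1100 to 3058 and 500 in WT, from 854 and 458 to 1360 and 171 in Ripk3KO and from 2164 and 1359 to 4776 and 387 in MlklKO. Against WT they went from 334 and 331 to 229 and 722 for Ripk3KO on control diet, from 118 and 46 to 69 and 74 on CD-LFD and from 31 and 25 to 22 and 42 on CD-HFD, and from 243 and 138 to 148 and 725 for MlklKO on CD-LFD. For the MlklKO interaction with CD-LFD they went from 649 and 607 to 387 and 1108. Orm1 in WT then passed on CD-HFD (0.66, adjusted p = 0.0460) and CD-LFD (0.72, adjusted p = 0.0438), Hp on CD-LFD (0.67, adjusted p = 0.0230), while the falls of Orm1 and Hp on CD-HFD in Ripk3KO, of Orm1 on CD-HFD and Lcn2 on CD-LFD in MlklKO, and the rise of Orm3 in MlklKO on control diet no longer passed. Depth limits Lcn2, Il1rn, Orm2, Orm3 and Saa3 in WT control livers, where some values rest on fewer than 10 reads.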
